A study of Rattus norvegicus with 24 samples.

Results

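The genes described here are 5 enzymes of cholesterol synthesis (Mvd, Fdft1, Nsdhl, Hsd17b7 and Dhcr7) and the transcription factor gene Srebf1, which were picked by gene symbol, 6 of the 12978 genes named on the array, each with 1 of its 22226 probes. They were chosen with an earlier look at these same arrays in view, in which enzymes of the route stood higher under growth hormone (GH) after 7 days. The values at 7 days are therefore a description with no test, and the tests on the 6 genes are those among the animals treated for 30 days. Earlier results that pooled both durations were known as well, so the 30-day tests are not wholly free of the choice. RNA of the hippocampus of 24 rats was hybridised to Illumina rat expression arrays, 1 animal to each array and 4 animals in each of 6 groups. The dw/dw GH groups were GH-deficient dwarf rats of the strain HsdOla:DWARF-dw-4 that were injected under the skin with 300 µg of GH from postnatal day 35 for 7 or 30 days. The dw/dw saline groups were rats of the same strain and genotype given saline over the same periods. The HZ groups were heterozygous rats of the strain HsdOla:DWARF-dw-4 HZ given saline, so the controls carried 1 dw allele, and no HZ rats given GH were among the groups. All animals of the 7-day groups were 42 days old and all animals of the 30-day groups 65 days old, so age, treatment duration and array slide cannot be told apart, since each time point lay on a slide of its own. On both slides each group filled a block of neighbouring positions, so group and position cannot be fully told apart either.

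Cholesterol is built from acetyl-CoA through mevalonate, isoprenoids, squalene and lanosterol, and the enzymes of the route are switched on together by the SREBP transcription factors. When membrane sterol is low, the escort protein SCAP carries SREBP from the endoplasmic reticulum to the Golgi, where proteases free its active part; INSIG proteins hold SCAP back when sterol is plentiful. SREBP-2, from Srebf2, mainly drives cholesterol synthesis, and SREBP-1, from Srebf1, mainly fatty acid synthesis. The blood-brain barrier keeps out plasma lipoproteins, so the brain makes its own cholesterol, at its highest rate while oligodendrocytes lay down myelin, and later largely in astrocytes.

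SREBPs act with 2 partner factors, NF-Y, which binds the CCAAT box, and Sp1, which binds the GC box, so the 250 bases upstream of the members' transcription starts were read from RefSeq's promoter table (build GRCr8). A window was found for 5 of the 6 genes, with 2 windows for Srebf1. The windows of the enzymes are shown because the choice of the genes did not use them, with each CCAAT, on either strand, in capitals. They lie at chrX:155817110-155817359 on the plus strand (Nsdhl), chr13:84722755-84723004 on the minus strand (Hsd17b7), chr19:67414975-67415224 on the minus strand (Mvd) and chr1:208444184-208444433 on the plus strand (Dhcr7), each printed in the direction of transcription.
Nsdhl: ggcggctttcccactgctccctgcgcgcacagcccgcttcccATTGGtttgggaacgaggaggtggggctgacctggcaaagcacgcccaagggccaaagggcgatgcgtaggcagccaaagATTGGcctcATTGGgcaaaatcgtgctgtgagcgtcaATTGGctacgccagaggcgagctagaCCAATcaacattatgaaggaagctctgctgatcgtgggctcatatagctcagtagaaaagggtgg
Hsd17b7: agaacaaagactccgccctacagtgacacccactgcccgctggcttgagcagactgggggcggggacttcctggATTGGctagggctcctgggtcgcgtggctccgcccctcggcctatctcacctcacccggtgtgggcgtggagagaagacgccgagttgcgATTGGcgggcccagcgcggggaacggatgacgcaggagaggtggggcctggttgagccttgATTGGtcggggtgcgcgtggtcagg
Mvd: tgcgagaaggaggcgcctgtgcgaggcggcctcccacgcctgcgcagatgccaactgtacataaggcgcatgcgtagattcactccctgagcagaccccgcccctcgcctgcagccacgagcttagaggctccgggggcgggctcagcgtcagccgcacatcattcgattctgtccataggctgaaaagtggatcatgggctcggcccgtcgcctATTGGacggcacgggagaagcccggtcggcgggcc
Dhcr7: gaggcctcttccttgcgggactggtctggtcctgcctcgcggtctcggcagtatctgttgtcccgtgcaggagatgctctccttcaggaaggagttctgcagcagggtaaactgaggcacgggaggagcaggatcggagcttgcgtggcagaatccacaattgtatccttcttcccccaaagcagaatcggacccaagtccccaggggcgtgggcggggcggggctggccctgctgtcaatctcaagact
The Nsdhl window held 5 CCAAT boxes, that of Hsd17b7 3, that of Mvd 1 and that of Dhcr7 none. GC boxes (GGGCGG on either strand) numbered 3 in the Hsd17b7 window, 2 in that of Mvd, 2 in that of Dhcr7 and 0 in that of Nsdhl. The Srebf1 windows held 1 and 2 CCAAT boxes, and 2 GC boxes each. Of all 33469 promoters in the table, 34.0% held a CCAAT and 30.5% a GGGCGG in the same length, and of the 13 windows of other cholesterol enzymes 11 held each of the 2. A loose form of the sterol regulatory element, TCACNCCAC on either strand, was in 0.974% of all promoters and the E-box CACGTG in 5.59%, and these letters occurred in none of the members' windows. Of the 13 windows of other cholesterol enzymes, 0 held the first and 1 held the second. A match describes the letters of a window and not a bound site.

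All 6 probes were detected on all 24 arrays, with a detection p-value of at most 0.00242. The tissue label was checked on markers: Prox1, Wfs1, Neurod6, Neurod2, Calb1 and Lmo4, all expressed in hippocampal neurons, were detected on all 24 arrays, Grik4, a further gene of that list, on 3, and the cerebellar genes Gabra6 and Pcp2 and the dopamine transporter gene Slc6a3 on 0 of 24. Markers that are strong in striatum or thalamus (Drd1, Drd2, Adora2a and Prkcd) were also detected on 24 arrays. Between 44.9% and 51.2% of probes were detected on an array, and 11487 probes entered the tests. Arrays have no read depth, and their number sets how precise the values are. Since whole tissue was measured, fewer cells of a type and less RNA in each cell cannot be told apart.

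After 7 days of GH, Dhcr7 had the largest difference of the 6 from the saline-treated dwarfs with quantile normalization, whereas in the authors' deposited values Hsd17b7 (0.21), the dimmest of the 6, exceeded Dhcr7 (0.17) and Mvd (0.12). Of the 6 genes, 5 had a higher mean in dw/dw GH than in dw/dw saline rats, by 0.08 (Nsdhl) to 0.18 (Dhcr7) on the log2 scale of normalized signal, where 49.3% of all tested probes had a difference above 0. Dhcr7, which reduces 7-dehydrocholesterol to cholesterol, read 8.35, 8.45, 8.42 and 8.50 in dw/dw GH rats, against 8.23, 8.32, 8.32 and 8.14 in dw/dw saline rats and 8.43, 8.40, 8.23 and 8.36 in HZ rats. The lowest GH array lay above the highest dw/dw saline array, which 1.45% of tested probes also showed in that direction, while the HZ arrays overlapped both dwarf groups. Mvd, the decarboxylase that yields isopentenyl diphosphate, read 8.26, 8.48, 8.33 and 8.58 in dw/dw GH rats, against 8.36, 8.29, 8.31 and 8.17 in dw/dw saline rats and 8.27, 8.20, 8.18 and 8.23 in HZ rats. Only GH replicates 2 and 4 of Mvd lay above every saline array, and the GH and saline groups overlapped.

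Hsd17b7 and Nsdhl, which act together in removing methyl groups from the sterol ring, had smaller differences in the normalized signal (0.09 and 0.08). Hsd17b7 read 6.52, 6.67, 6.53 and 6.74 in dw/dw GH rats, against 6.43, 6.58, 6.56 and 6.54 in dw/dw saline rats and 6.54, 6.52, 6.50 and 6.56 in HZ rats. GH replicates 2 and 4 were again the high ones, and the other 2 GH arrays lay inside the range of the saline-treated dwarfs. Nsdhl read 7.47, 7.55, 7.42 and 7.56 in dw/dw GH rats, against 7.51, 7.45, 7.36 and 7.35 in dw/dw saline rats and 7.52, 7.30, 7.46 and 7.52 in HZ rats, so that all 3 groups overlapped. Fdft1, squalene synthase, read 8.51, 8.58, 8.41 and 8.34 in dw/dw GH rats, against 8.69, 8.56, 8.45 and 8.32 in dw/dw saline rats and 8.59, 8.43, 8.46 and 8.39 in HZ rats. It was the 1 member without a higher mean under GH (difference -0.04), and its groups overlapped throughout. Srebf1 had the widest spread of the 6, reading 8.76, 8.43, 8.62 and 8.56 in dw/dw GH rats, against 8.43, 8.53, 8.71 and 8.29 in dw/dw saline rats and 8.57, 8.32, 8.46 and 8.37 in HZ rats. Its residual standard deviation, 0.14, lay at the 91.5th percentile of all tested probes, against 0.066 for Dhcr7.

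Against the HZ rats at 7 days, dw/dw GH rats had a difference of 0.19 for Mvd, 0.16 for Srebf1, 0.09 for Hsd17b7, 0.08 for Dhcr7, 0.05 for Nsdhl and -0.006 for Fdft1. With median scaling these were 0.33 for Mvd, 0.29 for Srebf1, 0.14 for Hsd17b7, 0.21 for Dhcr7, 0.18 for Nsdhl and 0.13 for Fdft1, where the median of all probes was 0.039. Dw/dw saline rats differed from HZ rats by -0.10 for Dhcr7, and by -0.03 to 0.06 for the other 5. The Dhcr7 difference between dw/dw saline and HZ rats was -0.005 with median scaling in place of quantile normalization. When slide position entered the fit as a covariate, the 7-day difference of dw/dw GH from dw/dw saline rats was -0.003 for Hsd17b7 and 0.18 for Fdft1, and that of Dhcr7 was 0.17. With any 1 array left out, the Dhcr7 difference of GH from saline ran from 0.14 to 0.20 and that of Mvd from 0.072 to 0.18. These ranges come from the arrays on which the genes were picked and do not test the differences.

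**Figure D1:**
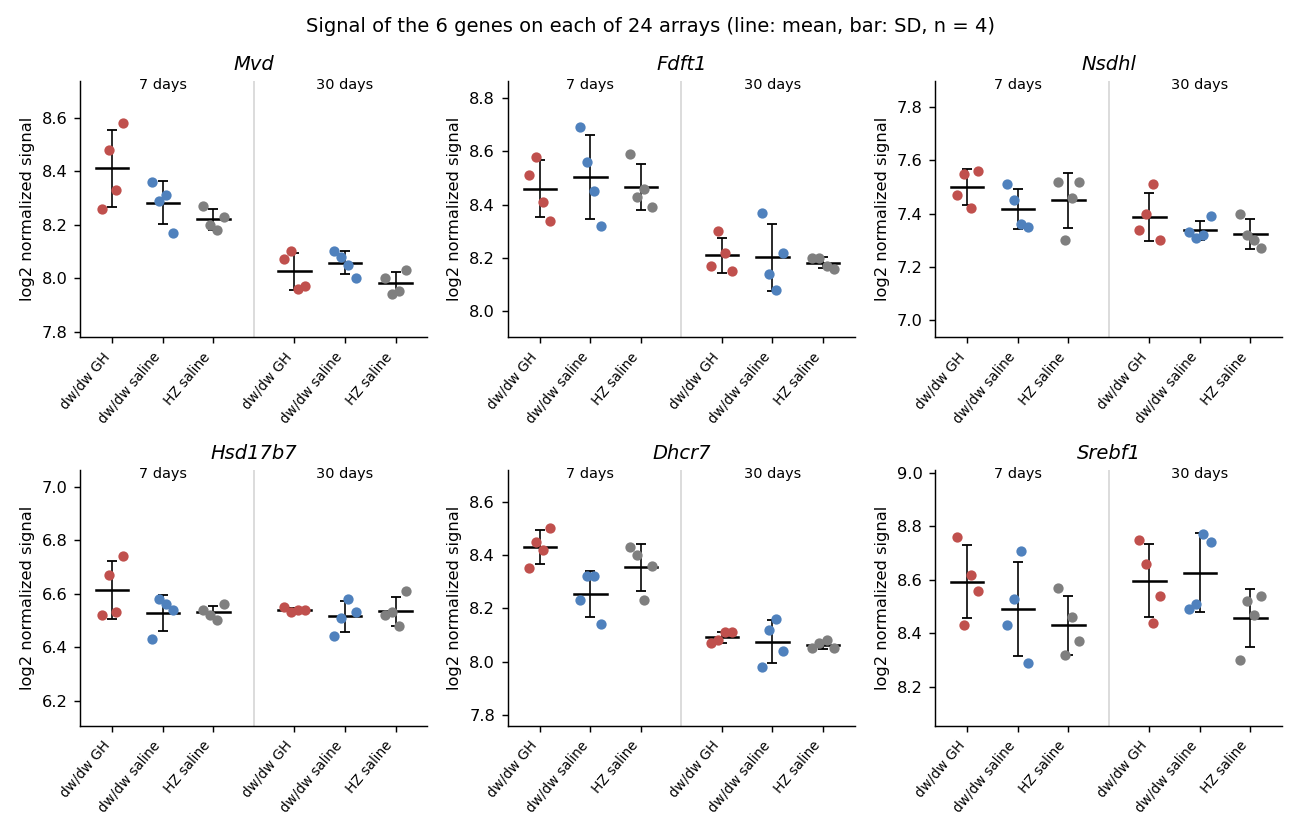
Log2 normalized signal (vertical axis, a span of the same size in every panel) of the 6 genes on each array, in dw/dw GH, dw/dw saline and HZ saline rats at 7 days and at 30 days; points are animals in replicate order, lines are means and bars SD (n = 4). Dhcr7 separates the dw/dw GH from the dw/dw saline arrays at 7 days, and Mvd, Fdft1 and Dhcr7 lie lower at 30 days than at 7 days in every group.

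After 30 days of treatment, no difference between dw/dw GH and dw/dw saline rats was called for any member. Differences ran from -0.034 for Mvd to 0.048 for Nsdhl, the 95% intervals of all 6 lay within -0.22 to 0.17, and 0 of 6 passed the test (limma, Benjamini-Hochberg adjusted p = 0.9996 for each), where 0% of all tested probes were called. At an unadjusted p under 0.05, 386 probes (3.36%) and 0 members passed. Dhcr7 read 8.07, 8.08, 8.11 and 8.11 in dw/dw GH rats, against 7.98, 8.12, 8.16 and 8.04 in dw/dw saline rats and 8.05, 8.07, 8.08 and 8.05 in HZ rats. The saline-treated dwarfs spanned the values of both other groups, and the GH difference of 0.019 had a 95% interval of -0.075 to 0.11. Mvd read 8.07, 8.10, 7.96 and 7.97 in dw/dw GH rats, against 8.10, 8.08, 8.05 and 8.0 in dw/dw saline rats and 8.0, 7.94, 7.95 and 8.03 in HZ rats. All 3 groups of Mvd overlapped, and its interval for GH against saline was -0.15 to 0.080.

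At 30 days Hsd17b7 read 6.55, 6.53, 6.54 and 6.54 in dw/dw GH rats, against 6.44, 6.51, 6.58 and 6.53 in dw/dw saline rats and 6.52, 6.53, 6.48 and 6.61 in HZ rats. Nsdhl read 7.34, 7.40, 7.51 and 7.30 in dw/dw GH rats, against 7.33, 7.31, 7.32 and 7.39 in dw/dw saline rats and 7.40, 7.32, 7.30 and 7.27 in HZ rats. GH replicate 3 was the highest Nsdhl array, and the groups of both genes overlapped. Fdft1 read 8.17, 8.30, 8.22 and 8.15 in dw/dw GH rats, against 8.37, 8.14, 8.08 and 8.22 in dw/dw saline rats and 8.20, 8.20, 8.17 and 8.16 in HZ rats, with both dwarf groups spread around the HZ values. The change of the GH difference between the time points, 30 days minus 7 days, was -0.16 for Dhcr7 (SE 0.064) and -0.16 for Mvd (SE 0.077). Since it contains the 7-day values on which the genes were picked, it is given without a test.

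The deficiency itself was compared at 30 days between dw/dw saline and HZ rats, and 0 of 6 members passed (0% of all probes were called; 820 probes, 7.14%, and 0 members had an unadjusted p under 0.05). Srebf1 had the largest difference of the 6. It read 8.49, 8.51, 8.77 and 8.74 in dw/dw saline rats, against 8.30, 8.52, 8.47 and 8.54 in HZ rats, and 8.75, 8.66, 8.44 and 8.54 in dw/dw GH rats. Saline replicates 3 and 4 lay above every HZ array while replicates 1 and 2 lay among them, and the difference of 0.17 (SE 0.094, 95% interval -0.028 to 0.36) had a limma adjusted p of 0.71. Mvd followed with 0.076, and the other 4 lay between -0.021 and 0.018.

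Dw/dw GH rats against HZ rats at 30 days gave a positive difference for all 6 members, from 0.004 for Hsd17b7 to 0.14 for Srebf1, where 52.6% of all tested probes were above 0. Of the 6, 0 passed (0% of all probes called, lowest limma adjusted p = 0.91; 630 probes, 5.48%, and 0 members at an unadjusted p under 0.05). With median scaling the differences of Mvd, Fdft1, Hsd17b7 and Dhcr7 turned negative, to -0.020, -0.042, -0.009 and -0.029.

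**Figure D2:**
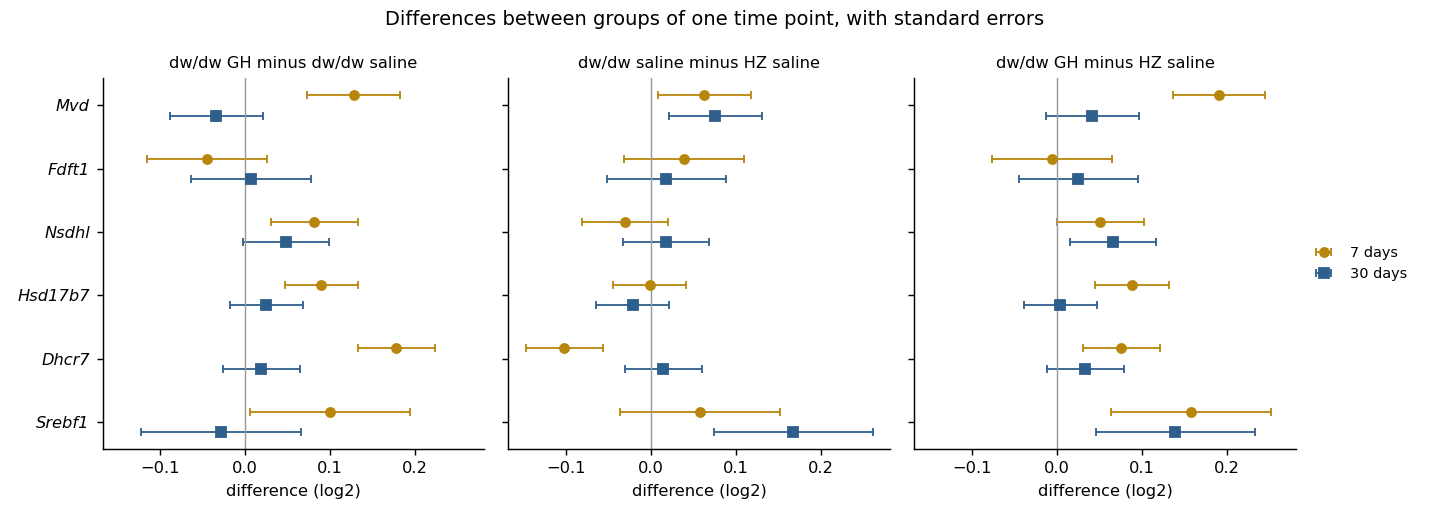
Differences of log2 signal (horizontal axis) of each gene (rows) between the groups of a time point, with standard errors of the limma fit, at 7 days (circles) and 30 days (squares). Dhcr7 and Mvd under GH differ from saline by 0.18 and 0.13 at 7 days, and by 0.019 and -0.034 at 30 days. The genes were picked with the 7-day values in view, so those are a description with no test.

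The clearest pattern across the 24 arrays ran between the time points. Mvd, Fdft1, Dhcr7 and, less so, Nsdhl had lower signals at 30 days than at 7 days in each of the 3 groups, a pattern shown by 26.2% of all tested probes. For Mvd, the 12 arrays at 30 days ran from 7.94 to 8.10 (median 8.01), against 8.17 to 8.58 at 7 days (median 8.28), so every 30-day array lay below every 7-day array. Only 0.218% of all tested probes (25 of 11487) showed that. The genes were picked with their 7-day values in view, so this share is a description and no test. For Dhcr7 the 30-day arrays ran from 7.98 to 8.16 (median 8.08), against 8.14 to 8.50 at 7 days (median 8.36), and for Fdft1 from 8.08 to 8.37 (median 8.19), against 8.32 to 8.69 at 7 days (median 8.45). In both genes 11 of the 12 arrays at 30 days lay below the lowest array at 7 days. Nsdhl ran from 7.27 to 7.51 at 30 days, against 7.30 to 7.56 at 7 days, and overlapped almost completely.

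By group, the difference of 30 days from 7 days was -0.39 for Mvd in dw/dw GH rats, -0.23 in dw/dw saline rats and -0.24 in HZ rats. For Dhcr7 it was -0.34 in dw/dw GH rats, -0.18 in dw/dw saline rats and -0.30 in HZ rats. Fdft1 differed by -0.25 in dw/dw GH rats, -0.30 in dw/dw saline rats and -0.28 in HZ rats, the most even of the 3. Among all tested probes, only 0.174%, 1.42% and 1.51% had a difference at or below that of Mvd in dw/dw GH, dw/dw saline and HZ rats. The share was 0.287%, 2.91% and 0.783% for Dhcr7, and 0.818%, 0.557% and 0.992% for Fdft1, in the same order. Hsd17b7 differed by -0.08, -0.01 and 0.006, and Srebf1 by 0.007, 0.14 and 0.03, in dw/dw GH, dw/dw saline and HZ rats. The transcription factor gene thus had no lower signal at 30 days in any group, although the sign for Srebf1 in dw/dw GH and HZ rats and for Hsd17b7 in HZ rats changed with the scaling. The median over the 6 members was -0.18 in dw/dw GH rats, -0.13 in dw/dw saline rats and -0.18 in HZ rats, while that of all probes was within 0.002 of 0. In dw/dw GH rats 3 members did not overlap between the ages (4.48% of probes did so downwards), in dw/dw saline rats 1 (4.62%) and in HZ rats 3 (4.49%). These values are given without a test, because they contain the 7-day arrays on which the genes were picked.

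Scaling mattered for comparisons across the slides. Quantile normalization within each slide moved the median of all probes by -0.11 between the ages in each group, and the authors' deposited values moved it by -0.13 to -0.14. Relative to that shift, Mvd in HZ rats was at -0.23 with the within-slide normalization and at -0.20 with the authors' values, and Dhcr7 at -0.29 and -0.26. With median scaling, the HZ differences were -0.13 for Mvd, -0.18 for Dhcr7, -0.16 for Fdft1 and -0.016 for Nsdhl. The 4 genes stayed below 0 in all 3 groups under all 3 of these scalings. Since the within-slide normalization and the authors' values put most probes below 0, that sign is no sign of stability there. Nsdhl in dw/dw saline rats, for 1, was at -0.19 with the authors' values, against the shift of -0.13 to -0.14.

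The mean of the 5 enzymes, each set to its own mean over all arrays, summarises this by animal. It lay at -0.090, -0.049, -0.066 and -0.12 in dw/dw GH rats, -0.088, -0.099, -0.094 and -0.096 in dw/dw saline rats and -0.098, -0.12, -0.14 and -0.11 in HZ rats at 30 days. At 7 days it was 0.093, 0.21, 0.092 and 0.21 in dw/dw GH rats, 0.11, 0.11, 0.067 and -0.026 in dw/dw saline rats and 0.14, 0.039, 0.032 and 0.080 in HZ rats. No 30-day value reached the lowest 7-day value, that of dw/dw saline replicate 4, and the 30-day animals were spread more narrowly. The 7-day values were in view when the genes were picked, so this is a description and no test.

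The other enzymes of the route bear on whether this pattern was limited to the members. A further 11 enzymes were tested, among them Ggps1, which makes geranylgeranyl diphosphate on a branch off the route. Of the 11, 8 had a lower mean at 30 days in all 3 groups (26.2% of all tested probes): Acat2, Pmvk, Idi1, Sqle, Cyp51, Tm7sf2, Msmo1 and Ebp. In dw/dw GH rats 2 of 11 fell (0.871% of all probes were called, in either direction). Sqle, squalene epoxidase, averaged 9.18 ± 0.072 at 30 days, against 9.47 ± 0.044 at 7 days (SD, n = 4; difference -0.29, SE 0.064, limma adjusted p = 0.036). Acat2, the thiolase at the head of the route, averaged 10.25 ± 0.075 at 30 days, against 10.50 ± 0.072 at 7 days (difference -0.26, limma adjusted p = 0.040). In HZ rats 2 of 11 fell (2.3% of all probes called): Acat2 by a difference of -0.31 (limma adjusted p = 0.014) and Ebp, the sterol isomerase, by -0.18 (limma adjusted p = 0.043). In dw/dw saline rats 0 of 11 passed (2.13% of all probes called), with 5 of 11 lower at an unadjusted p under 0.05 (7.98% of all probes), Sqle at -0.24 (limma adjusted p = 0.060) and Idi1, the isopentenyl diphosphate isomerase, at -0.28 (limma adjusted p = 0.062). Tm7sf2, a sterol reductase, differed by -0.38 in dw/dw GH, -0.29 in dw/dw saline and -0.32 in HZ rats without passing. The medians of the 11 were -0.079 in dw/dw GH, -0.056 in dw/dw saline and -0.12 in HZ rats, and Fdps, Ggps1 and Sc5d were above 0 in at least 2 of the 3 groups. The genes named between the ages were chosen after their values were seen.

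The calls differed in how much they rested on single animals. Acat2 in HZ rats kept its call without each of the 24 arrays and lost it with median scaling (difference -0.25). Sqle lost its call without any 1 of the 8 dw/dw GH arrays, with an adjusted p of 0.052 to 0.10, and also with median scaling (difference -0.37), no filter on dim probes (-0.29) and the share of detected probes as a covariate (-0.28). Acat2 in dw/dw GH rats lost it without each of 10 arrays (adjusted p of 0.051 to 0.13), namely all 4 dw/dw GH arrays at 7 days, GH replicates 1 to 3 at 30 days, saline replicate 4 at 7 days and saline replicates 2 and 4 at 30 days, and also with median scaling (-0.36) and no filter (-0.26). Ebp lost it without each of 12 arrays (adjusted p of 0.051 to 0.14), namely all 4 HZ arrays at 30 days, HZ replicates 1 and 2 and GH replicates 1 to 3 at 7 days, and saline replicate 2 and GH replicates 2 and 3 at 30 days. The Ebp call was also lost with median scaling (-0.070), no background correction (-0.16), no filter (-0.18) and array weights (-0.17). The number of the 11 enzymes that fell was 1 in dw/dw GH, 0 in dw/dw saline and 0 in HZ rats with median scaling, 8, 7 and 7 with quantile normalization within each slide, 6, 5 and 6 with the authors' values, and 0, 0 and 1 with no filter, in the same order of groups. The within-slide normalization called 7356, 7576 and 7580 of all 11487 tested probes in either direction, so its enzyme counts do not stand out. With the authors' values 1369, 1656 and 1954 probes were called, and with median scaling 15, 7 and 9. Of 245 probes called in dw/dw saline rats, 100 in dw/dw GH rats and 264 in HZ rats, the numbers changed several-fold with the scaling.

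**Figure D3:**
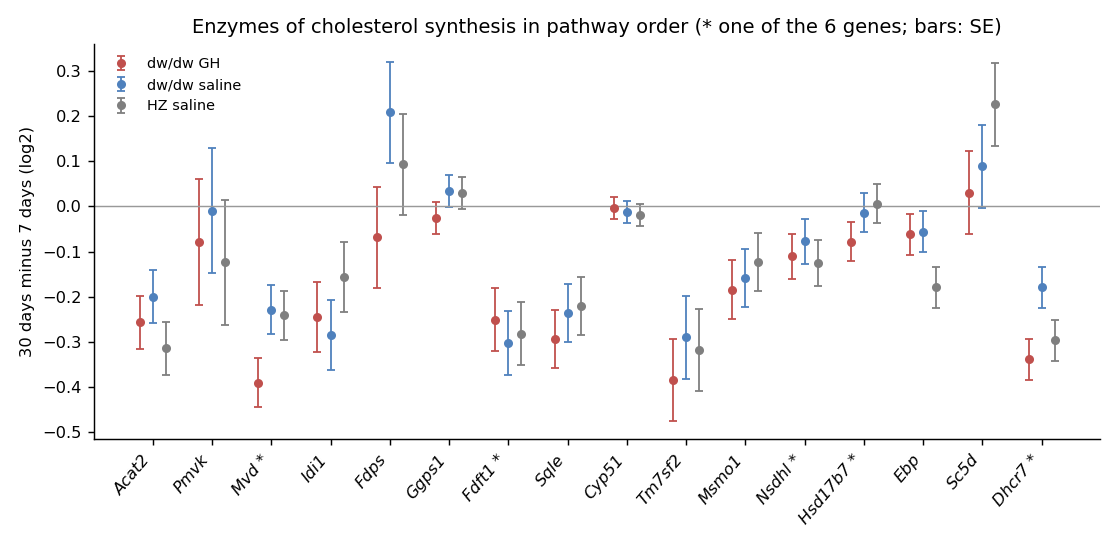
Difference of log2 signal, 30 days minus 7 days (vertical axis), with the standard error of the fit, for the 16 measured enzymes of the cholesterol synthesis list in pathway order (Ggps1 lies on a branch off the route), in dw/dw GH, dw/dw saline and HZ rats. An asterisk marks the 5 enzymes picked. Mvd, Fdft1 and Dhcr7 sit at -0.39 to -0.18, near Acat2, Sqle and Tm7sf2. Hsd17b7, the dimmest of the 5, sits at -0.078 to 0.006. In the authors' values, which shifted all probes downwards, Hsd17b7 lay at -0.28 to -0.10.

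Within a time point the other 11 enzymes gave 0 calls in all 6 comparisons, with 1 of them, Ebp, below an unadjusted p of 0.05 in 1 comparison. At 7 days 10 of the 11 had a higher mean in dw/dw GH than in dw/dw saline rats and the median difference was 0.046. Fdps, farnesyl diphosphate synthase, had the smallest p of the 11, with a difference of 0.17 (SE 0.11, limma adjusted p = 0.9999). Ebp had a difference of -0.13 between dw/dw GH and HZ rats (limma adjusted p = 0.9986), which turned to 0.000842 with median scaling. At 30 days 5 of the 11 had a higher mean in dw/dw GH than in dw/dw saline rats and the median difference was -0.014. All these comparisons use the same arrays as those of the members, the dw/dw GH arrays included. The values of the 11 at 7 days are thus no independent check of the members.

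Genes that control or follow SREBP were set beside the enzymes. Of 8 tested SREBP regulators 0 passed in any comparison, and 1 was lower at 30 days in all 3 groups, where 26.2% of all tested probes were. So the regulators as a list did not stand out. The 1 was Insig1, a feedback gene that SREBP itself switches on, named after its values were seen. It differed by -0.26 in dw/dw GH, -0.30 in dw/dw saline and -0.21 in HZ rats. Srebf2 stayed within -0.03 to 0.02 between the ages. Of 12 tested SREBP-1 targets of fatty acid synthesis, 9 were lower at 30 days in all 3 groups (26.2% of all tested probes). Scd, the stearoyl-CoA desaturase, fell in dw/dw GH rats to 8.68 ± 0.063 at 30 days, against 9.17 ± 0.17 at 7 days (difference -0.50, SE 0.085, limma adjusted p = 0.0073), and kept the call without each of the 24 arrays. It also fell in HZ rats, by a difference of -0.40 (limma adjusted p = 0.027), a call that was lost without HZ replicates 1 and 2 at 7 days or 1 and 3 at 30 days (adjusted p of 0.066 to 0.078), with median scaling (-0.29) and with the share of detected probes as a covariate (-0.34). In dw/dw saline rats its difference was -0.30 (limma adjusted p = 0.074). Of 16 tested genes of sterol uptake, export and turnover 0 passed between the ages, with medians of 0.022 in dw/dw GH, 0.004 in dw/dw saline and 0.003 in HZ rats. Within a time point 0 genes of these 3 lists passed in any comparison, and at most 3 of a list had an unadjusted p under 0.05.

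Some lists of markers of other cells were lower at 30 days as well, and others were not. Of 12 oligodendrocyte markers, 10 had a lower mean at 30 days in all 3 groups, with medians of -0.12 in dw/dw GH, -0.23 in dw/dw saline and -0.20 in HZ rats. Mobp, a myelin gene, was the 1 marker that passed, in dw/dw saline (-0.57, limma adjusted p = 0.030) and HZ rats (-0.63, limma adjusted p = 0.027). The mean of the oligodendrocyte markers ran from -0.18 to 0.019 at 30 days, against -0.11 to 0.35 at 7 days, and so overlapped. The mean of the 11 other enzymes overlapped too, at -0.105 to 0.00702, against -0.0206 to 0.135. That of the 5 picked enzymes did not overlap, by a narrow margin (highest -0.049 at 30 days, lowest -0.026 at 7 days). The 5 were picked with their 7-day values in view, so this does not set them apart from the other lists. Red blood cell markers were lower still. All 5 tested had a lower mean at 30 days in the 3 groups and 3 of 5 fell in each, Hba-a1 by a difference of -1.21 in dw/dw GH rats (limma adjusted p = 0.0029). Their mean ran from -0.75 to -0.10 at 30 days, against 0.13 to 0.74 at 7 days. They also stood higher under GH than under saline, with a median difference of 0.58 at 7 days and 0.47 at 30 days, and none of the 5 passed. Of 12 markers of meninges and fibroblasts, all were higher in dw/dw GH than in dw/dw saline rats at 7 days (median 0.091). Between the ages all 12 had a lower mean at 30 days in HZ rats (median -0.24). Of these, 3 fell, Col1a2 by a difference of -1.57, Igf2 by -1.48 and Col1a1 by -0.11 (limma adjusted p = 0.041 for each). Col1a1 was detected on only 13 arrays. The mean of the 12 markers in HZ rats at 7 days was 0.59 and 0.47 in replicates 1 and 4. It was 0.011 and -0.12 in replicates 2 and 3, and ran from -0.29 to -0.14 in HZ rats at 30 days. How far the marker calls rest on single arrays was not tested. Medians between the ages were -0.018 in dw/dw GH and -0.012 in dw/dw saline rats, with 0 calls. Of 9 neuron markers 1, Gad1, rose in dw/dw GH (0.24, limma adjusted p = 0.035) and dw/dw saline rats (0.23, limma adjusted p = 0.024), and 0 passed in HZ rats. Of these 9, 5 were higher and 3 lower at 30 days in all 3 groups. Of 8 astrocyte markers 3 were lower and 1 was higher at 30 days in all 3 groups, and of 7 microglia markers 2 and 2. Of 6 hippocampal neuron markers 1 was lower and 2 were higher, of 3 choroid plexus markers 0 and 1, and of 2 endothelial markers 1 and 1. Among all tested probes 26.2% were lower and 23.7% higher in all 3 groups. The part of these cells in the enzymes' values was not tested.

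Between animals of a group, which the choice of the genes did not use, the 6 genes varied together only weakly. After the group means were removed, 11 of the 15 pairs correlated positively over the 24 arrays, with a median Pearson r of 0.12. Hsd17b7 and Dhcr7 had the highest r, 0.52 (permutation p = 0.023 within groups, adjusted p = 0.28 over the 15 pairs; Spearman rho 0.54, permutation p = 0.019, adjusted p = 0.26). It was 0.54 over the 7-day arrays, 0.48 over the 30-day arrays and 0.48 without the 2 arrays farthest from the median of Hsd17b7. Fdft1 and Hsd17b7 had the lowest, -0.46 (permutation p = 0.072, adjusted p = 0.28; Spearman rho -0.47, permutation p = 0.052, adjusted p = 0.26), which was -0.24 without the 2 arrays farthest from the median of Fdft1. After adjustment 0 of 15 pairs passed, and 1 did so without dw/dw saline replicate 4 at 7 days. With median scaling 13 of 15 pairs passed, with a median r of 0.67. Srebf1 correlated with the enzymes at -0.14 to 0.20.

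**Figure D4:**
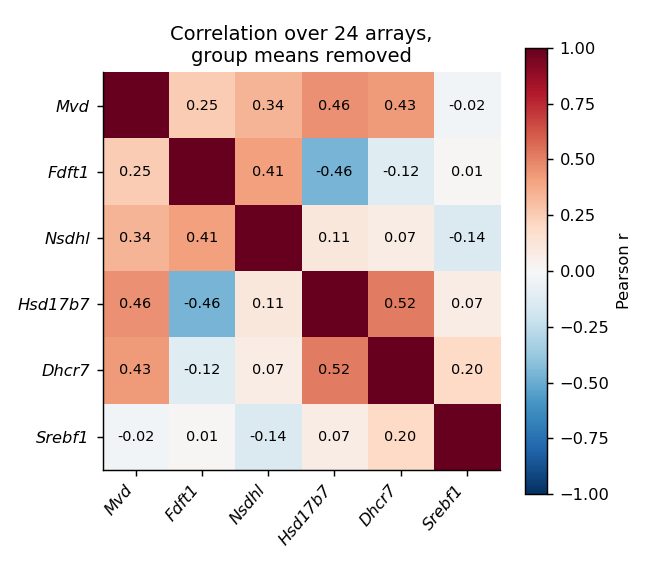
Pearson r (colour scale and printed values) between the signals of each pair of the 6 genes over 24 arrays, after the mean of each of the 6 groups was removed. Hsd17b7 with Dhcr7 is highest at 0.52, Fdft1 with Hsd17b7 lowest at -0.46, and the Srebf1 row lies near 0.

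Within groups, the mean of the 5 enzymes correlated over 24 arrays with the mean of the other 11 enzymes at r = 0.67, the SREBP regulators at 0.50, the oligodendrocyte markers at 0.46, the median scanner signal at 0.34 and the red blood cell markers at -0.038. With Srebf1 included, the mean of the 6 correlated with the other enzymes at 0.48, with the SREBP-1 targets at 0.55, with the genes of sterol uptake, export and turnover at 0.53 and with the median scanner signal at 0.505. These are descriptions, with no test of their differences. Across all named genes tested, those most like each member over the 24 arrays with group means removed were mostly outside the pathway. They were Psmc2 (r = 0.77), Snx15 and Acsl1 for Mvd, Mib1 (0.73), Camkmt and Ccdc163 for Fdft1, and Ndufv2 (0.81), Rab5a and Cep19 for Nsdhl. For Dhcr7 they were the ribosomal protein genes Rps20 (0.82) and Rpl13a (0.79) and the gene Kcnab3, and for Srebf1 Mbd6 (0.82), Rtel1 and Setd4. Hsd17b7 was most like Rita1 (0.78), Vps33b (0.78) and Scap (0.77), the last being the gene of the SREBP escort protein.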

How the data were processed

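Hippocampal RNA of 24 rats (4 in each of 6 groups, placed by their source labels) was measured on Illumina arrays. Per the file headers, the deposited scanner table gives a signal intensity and a detection p-value for each probe on each array. The submitters' processing notes name GenomeStudio 2010.2, with no role. The authors' deposited value table holds a second set of intensities; no source used here states their scale or normalization. Its lowest value was -13.04 and its values follow the rank order of the scanner signals, and it served as an alternative after values under 1 were set to 1 and log2 was taken.

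From the scanner intensities, background was corrected with normexp from the detection p-values (offset 16, which draws differences of dim probes towards 0), and the 24 arrays were quantile normalized and put on a log2 scale (neqc, limma 3.58.1, R 4.3.3). Probes detected (p under 0.05) on at least 4 arrays were tested, 11487 of 22226 (51.7%), of which 8050 were named, for 7983 genes. Gene symbols came from the platform's annotation table, where 13192 probes carried 1 symbol and 9034 were unnamed here. A model of 6 group means was fitted to all arrays (lmFit, eBayes, two-sided, 18 residual degrees of freedom), with Benjamini-Hochberg adjustment over the tested probes of a comparison and a threshold of 0.05. The p-values measure the spread between these animals and their arrays. Between the ages they hold no spread between slides, since each time point lay on a slide of its own. The fit was tested on simulated data. Correlations were tested with 100000 permutations within groups, two-sided, in Python 3.11.15 (numpy 2.4.6, pandas 2.3.3, scipy 1.17.1; figures with matplotlib 3.10.9, labels read with jsonlite 2.0.0).

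The members, gene lists and tests were chosen with earlier results of these data known. Genes outside the members were named as those with the smallest p of each list within a time point, and the 3 named genes most like each member. Deviations of same-numbered replicates correlated at r from -0.28 to 0.49, above 0.1 in 12 of 24 pairs. All 4 pairs exceeded 0.1 for dw/dw GH against HZ rats at 7 days, where the replicate block left the count of calls at 0, and not all did in the other 5 comparisons. The labels give no shared litter or day, and the main fit has no replicate block. The alternatives were median scaling, quantile normalization within each slide, the authors' values, no background correction, no or a stricter filter on dim probes, the slide of a time point alone, slide position or share of probes detected as covariate, array weights, the replicate block, and each array left out.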

Additional observations from a re-analysis of the deposited data

How the results depend on the processing

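Over 630 alternative values of the members' 30-day differences, 595 kept their direction and 0 passed the threshold. The 35 that turned sign started from differences of 0.076 or less. With median scaling, dw/dw GH against dw/dw saline rats turned to -0.030 (Fdft1) and -0.017 (Dhcr7), dw/dw saline against HZ rats to -0.013 (Fdft1), -0.000224 (Nsdhl) and -0.012 (Dhcr7), and dw/dw GH against HZ rats to -0.020 (Mvd), -0.042 (Fdft1), -0.0088 (Hsd17b7) and -0.029 (Dhcr7). With slide position as a covariate, which runs nearly along the groups, GH against saline turned to 0.0042 (Mvd) and -0.068 (Hsd17b7), saline against HZ to -0.000413 (Mvd), -0.42 (Fdft1), -0.043 (Nsdhl) and 0.16 (Hsd17b7), and GH against HZ to -0.19 (Fdft1). With the share of detected probes as a covariate, Fdft1 turned to -0.012 (GH against saline) and Dhcr7 to -0.0083 (saline against HZ), and with array weights Hsd17b7 to -0.000681 (GH against HZ).

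Leaving out arrays 1 at a time moved GH against saline at 30 days from -0.033 to 0.063 (Fdft1), -0.000315 to 0.046 (Hsd17b7), -0.012 to 0.046 (Dhcr7) and -0.080 to 0.024 (Srebf1). It moved saline against HZ from -0.037 to 0.058 (Fdft1), -0.042 to 0.0052 (Hsd17b7) and -0.012 to 0.046 (Dhcr7), and GH against HZ from -0.0058 to 0.047 (Fdft1) and -0.016 to 0.030 (Hsd17b7). Ebp turned to 0.050 (saline against HZ, 7 days) and 0.000842 (GH against HZ, 7 days) with median scaling, and to 0.040 (GH against saline, 30 days) with slide position. The cause of these changes was not tested.

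The number of probes called within a time point was 0 in each comparison. It was 1 with the share of detected probes as a covariate (GH against saline at 7 days and at 30 days), 1 with the authors' values and 1 with array weights (both saline against HZ at 30 days), and 1 with the replicate block (saline against HZ at 7 days). The replicate block changed no other call, and 12 of 24 pairs correlated best with their own number. With arrays left out, the counts were 0 to 1 for each 7-day comparison, 0 to 5 for saline against HZ at 30 days (5 without saline replicate 1) and 0 for the other comparisons at 30 days.

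Between the ages the counts moved most. Against 100 probes in dw/dw GH rats, median scaling called 15, within-slide quantile normalization 7356, the authors' values 1369, no filter 42, the share-of-detected covariate 167 and array weights 256. Against 245 in dw/dw saline rats they were 7, 7576, 1656, 134 and 477, without a change over 1.5 times for array weights. Against 264 in HZ rats they were 9, 7580, 1954, 93, 164 and 142. With arrays left out, the counts ran from 34 to 117 in dw/dw GH, 96 to 282 in dw/dw saline and 41 to 299 in HZ rats. The smaller sets came without any dw/dw GH array but replicate 1 at 30 days, without any dw/dw saline array but replicate 4 at 7 days, and without HZ replicates 1 and 2 at 7 days and 1, 3 and 4 at 30 days.

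The share of probes above 0 moved with the scaling. With median scaling it was 77.1%, against 52.4%, for saline against HZ and 81.3%, against 50.9%, for GH against HZ at 7 days, and 38.2%, against 52.6%, for GH against HZ at 30 days. Between the ages it was 32.5%, against 49%, in dw/dw GH rats and 67.4%, against 48.6%, in HZ rats. It was 6.92%, 8.17% and 9.47% within slides, and 20.5%, 21.6% and 24.1% with the authors' values, in dw/dw GH, dw/dw saline and HZ rats. Of the 15 correlated pairs 13 passed with median scaling, and 0 to 1 with an array left out. The 4 arrays of each group limit the precision, and signal near background limits Hsd17b7, the dimmest of the 6 genes.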
